A study of Mus musculus with 4 samples.

Results

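The comparison described here is that of Msx1-/- with Msx1+/- mesenchyme of the mandibular (lower) molar tooth germs of mouse embryos at embryonic day 14. It rests on 2 of the 4 libraries of the series, chosen by their labels, 1 for each genotype, and the other 2 libraries hold the same genotypes in maxillary (upper) molars. Of 22072 gene names in the tables, 10467 had a mean of at least 1 FPKM in the lower molar pair and are compared. Per the labels, mesenchyme was cut by laser capture from frozen head sections of a mixed strain background, and the Ovation RNA-Seq v2 assay of NuGEN was used to make cDNA. By the design text each library is a pool, with material of 3 pairs of control and mutant combined. The sample labels give the control embryos as Msx1+/-, in which case the control and the mutant library share 1 mutant allele, which the labels do not name, whereas the title of the series speaks of wild type and this conflict could not be settled. Neither genotype has a second lower molar library, hence no p-value is given for the lower molar differences below and none of them has a replicate check within that jaw.

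At this age the epithelium of a normal molar germ folds into a cap around the condensed dental mesenchyme, which later forms pulp and dentin. The homeodomain factor encoded by Msx1 acts in that mesenchyme, and tooth development in mice without it stops at an early stage. Signals of the Fgf, Bmp, Wnt and activin families pass between epithelium and mesenchyme at this stage, and Msx1 is known as a mesenchymal component of that exchange.

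Expression is given as FPKM, fragments per kilobase of transcript scaled to the number of mapped fragments, summed over the transcripts of a gene name. As deposited, FPKM was lower in the mutant over most genes. Annotated transcripts held 28.6% of mapped sequence in the mutant and 39.9% in the control library, on the usual definition of FPKM, against 36.3% and 39.2% in the upper molar libraries. The lower molar libraries were therefore rescaled by median of ratios, with a multiplier of 0.850 for the control and 1.18 for the mutant. All FPKM values below are rescaled and are given for the control first and the mutant second. These 10467 genes are called measured, by their rescaled mean. A gene was counted as higher or lower in the mutant where log2(FPKM + 1) differed by at least 1. The median difference of all measured genes was -0.007.

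In the mutant, 236 of the 10467 measured genes were higher (2.25%) and 327 were lower (3.12%). On the values as deposited 97 genes were higher and 993 lower, with a median difference of -0.39 over all genes, and lower genes then made up 91.1% of those counted in place of 58.1%. Of the higher genes named below, 25 were not counted on the values as deposited, namely Anapc13, C1qc, Cald1, Cdkn1c, Cdon, Col25a1, Col27a1, Csf1, Dkk2, Epha7, Ext2, Gas1, Grem1, H19, Hbb-b2, Igfbp2, Krt5, Lgr5, Mab21l2, Mrc1, Plagl1, Sfrp1, Tbx15, Tbx3 and Vegfc. On the same values Msx1, Actb, Cdk4, Id3, Ifitm2 and Sostdc1, which were not counted after rescaling, were counted as lower. With a pseudocount of 5 in place of 1, 74 of 179 named counted genes were no longer counted, among them Ank, Cdkn1a, Etv4, Heyl, Lgr6, Meis2, Notch1, Ntrk2, Sfrp4, Tcf7, Tgfb1 and Wif1. The low side held the larger differences. A difference of at least 3 was seen in 11 lower and 4 higher genes, and one of at least 4 in 6 lower and 0 higher genes. Lower genes were more frequent among short transcripts, at 5.15% of genes with transcripts of 183 to 1577 bases and 1.86% of genes with transcripts of 4707 to 83437 bases, whereas higher genes made up 2.15% and 2.67%. In upper molars the shares of lower genes in these length classes were 3.09% and 2.92%. With GC content of the transcript, lower genes went from 1.75% at 33.4 to 44.5% GC up to 4.2% at 56.0 to 72.8% GC. The part of transcript length and GC content in the results was not tested.

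**Figure D1:**
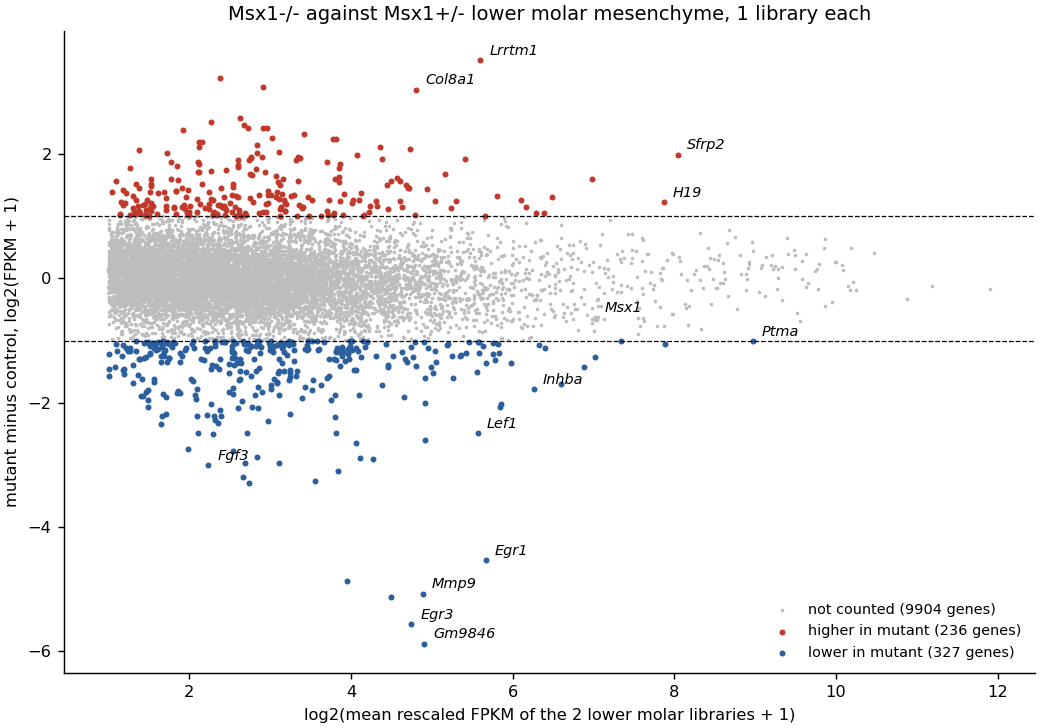
Difference between the Msx1-/- and the Msx1+/- lower molar library (vertical axis, log2(FPKM + 1)) against mean level (horizontal axis, log2 scale), 1 point for each of 10467 measured genes. Dashed lines mark differences of 1 and -1, and the points farthest from 0 lie on the low side, with -5.87 for Gm9846 and -5.56 for Egr3 against 3.51 for Lrrtm1 on the high side.

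Msx1 itself (chromosome 5, 38211730 to 38215824, mm9) was at 157 and 101 FPKM, a difference of -0.63 that was not counted, although it was counted as lower on the values as deposited. The upper molar libraries stood at 167 and 128 FPKM. The allele is not named in the labels, and reads are not resolved by exon in these values, so the level of Msx1 is no check of the genotype labels. Msx1as, an antisense gene, overlaps Msx1, and no source used here says that strand was kept, so their reads cannot be told apart.

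The captured tissue carried the markers of dental mesenchyme in both libraries. Of 13 such markers 12 were measured, and their summed level was 701 FPKM in the control and 654 FPKM in the mutant. The homeobox gene Prrx1 (115 and 138 FPKM), the intermediate filament gene Vim (186 and 166 FPKM) and the homeobox gene Barx1 (63.4 and 98.1 FPKM), which marks molar mesenchyme, were abundant in both. Dlx2, Runx2 and Prrx2 were the 3 markers of this list that were counted, all lower.

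The largest difference of all was in Gm9846 (58 and 0.00516 FPKM, -5.87), a gene model that was near 0 in the other 3 libraries. Next on the low side came transcription factors of the immediate-early class, a matrix protease and an enzyme of pyrophosphate metabolism. Egr3 (chromosome 14, 70477252 to 70479964), a zinc finger factor that growth factors induce within minutes, was at 51.6 and 0.114 FPKM, a difference of -5.56. Its relatives Egr2 (29 and 0.0306 FPKM) and Egr1 (96.3 and 3.19 FPKM) differed by -4.86 and -4.54. All 3 were thus near 0 or a small fraction of the control level in the mutant. Enpp1, which makes extracellular pyrophosphate, an inhibitor of mineralization, was at 42.9 and 0.26 FPKM. Ank, whose product carries pyrophosphate out of cells, was lower too (8.04 and 1.66 FPKM, -1.77). Mmp9 (chromosome 2, 164773751 to 164781346), a gelatinase, was at 56.5 and 0.706 FPKM, and Timp1, which encodes an inhibitor of such proteases, at 33 and 3.53 FPKM. Spp1, a matrix protein of bone and dentin, was at 5.88 and 0.0251 FPKM. The neuronal pentraxin gene Nptx1 was at 10.4 and 0.244 FPKM, the Ly6 family gene Lypd1 at 11.1 and 0.239 FPKM and the calcitonin gene-related peptide gene Calca at 20.4 and 1.22 FPKM. Tcfap2c, an AP-2 transcription factor of ectoderm and neural crest, was at 24.6 and 2 FPKM, and Mical2, an oxidase that takes actin filaments apart, at 9.17 and 0.487 FPKM. In all, 12 lower genes were at 5 FPKM or more in the control and under 0.5 FPKM in the mutant, against 3 genes with the reverse pattern.

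On the high side stood genes of cell adhesion and matrix. Lrrtm1 (chromosome 6, 77192711 to 77195511), which encodes a leucine-rich repeat adhesion protein of synapses, was at 6.85 and 88.3 FPKM, a difference of 3.51. Col8a1 (chromosome 16, 57624369 to 57754850), a short-chain collagen, was at 5.08 and 48.8 FPKM (3.03). The protocadherin gene Pcdh9 (0.586 and 12.4 FPKM), the immunoglobulin adhesion gene Ncam2 (0.759 and 9.56 FPKM), the teneurin gene Odz2 (0.956 and 9.8 FPKM) and the neurexophilin gene Nxph1 (1.81 and 12.5 FPKM) were each below 2 FPKM in the control and above 9 FPKM in the mutant. Matrix genes in this group were Hapln1 (1.44 and 12.1 FPKM), whose link protein ties proteoglycans to hyaluronan, and Egfl6 (3.91 and 22.3 FPKM). Receptor genes for peptide hormones were also among the 20 highest, with Agtr2, the angiotensin type 2 receptor, at 3.8 and 21.7 FPKM and the somatostatin receptor gene Sstr4 at 0.557 and 6.11 FPKM. The growth factor gene Igf1 was at 2.58 and 16.9 FPKM, the repulsive guidance ligand gene Sema3d at 1.08 and 10.2 FPKM and the myelin protein gene Pmp22 at 6.71 and 32.4 FPKM. Krt15 (1.65 and 10.7 FPKM) and Perp (0.438 and 7.21 FPKM) are epithelial genes and are taken up with the markers below. Akr1b3, Pisd-ps3 and Fam166a were also among the 20 highest, the first at 0.000221 and 8.38 FPKM. Akr1b3 and Pisd-ps3 have near-identical copies in the genome, so their values are uncertain where reads were shared out between copies.

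**Figure D2:**
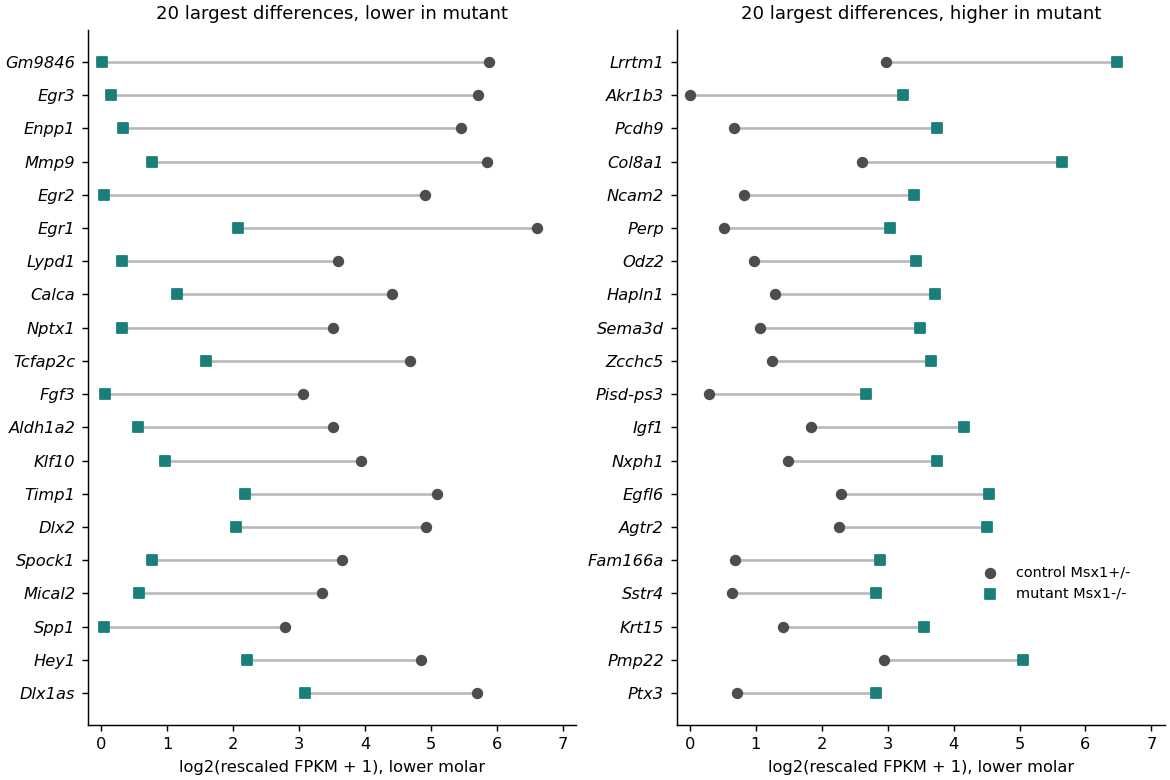
Level in the control (grey circles) and the mutant (green squares) lower molar library, as log2(rescaled FPKM + 1), for the 20 genes with the largest difference in each direction. On the left Egr3, Egr2, Fgf3 and Spp1 reach 0 or nearly so in the mutant, and on the right Lrrtm1 and Col8a1 have the highest mutant levels.

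Promoters of genes with large differences are shown to let a reader see which known factor sites their start regions hold. RefSeq sequences (build GRCm38.p6, 250 bases before to 50 after a transcript start) were at hand for 207 of the 327 lower, 154 of the 236 higher and 7509 of the measured genes. Capitals mark matches on either strand to the CArG box of serum response factor, the cyclic AMP element TGACGTCA, the AP-1 site TGANTCA, the Egr site GCGNGGGCG, the Ets site CCGGAAGT, the Tcf/Lef core CTTTGA and the Msx core TAATTG, and none of these overlap in the promoters printed. Where a gene has several starts, the promoter with the most kinds of match is given. It was chosen from 5 for Egr2 and 4 for Lef1, so a match there is in part a result of that choice. The first 4 belong to lower genes, namely the immediate-early factor Egr2 (chr10:67537316-67537615, plus strand), the ligand Fgf3 (chr7:144838362-144838661, plus strand), the nuclear Wnt effector Lef1 (chr3:131112541-131112840, plus strand) and the phosphatase Dusp6 (chr10:99262981-99263280, plus strand). The other 2 belong to the higher genes Lrrtm1 (chr6:77242227-77242526, plus strand) and Col8a1 (chr16:57754688-57754987, minus strand).
Egr2: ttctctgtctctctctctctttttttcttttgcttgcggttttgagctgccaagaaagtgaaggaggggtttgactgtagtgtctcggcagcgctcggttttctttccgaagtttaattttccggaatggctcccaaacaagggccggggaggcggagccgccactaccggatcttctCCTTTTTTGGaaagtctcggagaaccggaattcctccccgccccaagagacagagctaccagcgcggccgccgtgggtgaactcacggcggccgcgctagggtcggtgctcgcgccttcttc
Fgf3: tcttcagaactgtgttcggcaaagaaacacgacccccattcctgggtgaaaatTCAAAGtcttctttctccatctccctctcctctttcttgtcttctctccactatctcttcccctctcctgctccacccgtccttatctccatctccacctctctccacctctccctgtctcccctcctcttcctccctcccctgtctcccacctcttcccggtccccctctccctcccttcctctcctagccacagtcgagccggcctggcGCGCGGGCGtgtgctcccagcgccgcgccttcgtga
Lef1: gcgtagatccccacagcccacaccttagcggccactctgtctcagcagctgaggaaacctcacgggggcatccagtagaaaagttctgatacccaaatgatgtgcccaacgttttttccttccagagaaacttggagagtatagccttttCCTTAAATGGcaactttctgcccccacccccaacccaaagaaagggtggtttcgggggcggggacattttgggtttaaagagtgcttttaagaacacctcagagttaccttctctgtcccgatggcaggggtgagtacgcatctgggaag
Dusp6: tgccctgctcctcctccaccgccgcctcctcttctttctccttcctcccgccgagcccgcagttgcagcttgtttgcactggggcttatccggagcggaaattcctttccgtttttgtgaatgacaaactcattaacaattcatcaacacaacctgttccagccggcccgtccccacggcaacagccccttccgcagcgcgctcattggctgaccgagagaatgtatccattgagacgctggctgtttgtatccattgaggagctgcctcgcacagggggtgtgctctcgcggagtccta
Lrrtm1: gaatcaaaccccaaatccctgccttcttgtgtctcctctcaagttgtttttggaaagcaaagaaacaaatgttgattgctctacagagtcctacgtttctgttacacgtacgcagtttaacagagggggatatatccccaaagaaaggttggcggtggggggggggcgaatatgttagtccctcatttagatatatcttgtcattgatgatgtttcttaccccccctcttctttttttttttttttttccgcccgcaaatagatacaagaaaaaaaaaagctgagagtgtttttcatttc
Col8a1: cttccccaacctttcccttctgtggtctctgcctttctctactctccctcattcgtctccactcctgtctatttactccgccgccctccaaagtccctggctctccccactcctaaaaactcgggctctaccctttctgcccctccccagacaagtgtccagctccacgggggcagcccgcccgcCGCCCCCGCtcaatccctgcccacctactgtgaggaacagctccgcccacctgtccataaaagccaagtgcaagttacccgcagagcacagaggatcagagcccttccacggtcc

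The printed Egr2 and Lef1 promoters each held a CArG box, the Fgf3 promoter a Tcf/Lef core and an Egr site, and the Col8a1 promoter an Egr site. No searched letters were found in the windows of Dusp6 and Lrrtm1. A CArG box was present in 3.38% of lower (7 genes), 3.25% of higher (5 genes) and 1.6% of measured genes with a promoter. Its share of all genes in the promoter table was 1.81%. The Egr site was present in 19.3% of lower, 12.3% of higher, 13.4% of measured and 6.27% of all genes. The Ets site was the least frequent among higher genes, at 0.649% (1 of 154) against 5.80% of lower, 9.87% of measured and 4.31% of all genes. For the Msx core the shares were 8.44% of higher, 5.31% of lower, 5.58% of measured and 9.22% of all genes. The AP-1 site was in 7.79% of higher and 7.25% of lower genes, against 5.34% of measured and 8.97% of all genes, and the Tcf/Lef core in 20.1% and 13%, against 13.6% and 18.2%. The cyclic AMP element was in 3.25% and 4.35%, against 3.81% and 2.03%. These are counts of letters in a window and no test was made.

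Counted Fgf ligands went both ways, while the counted feedback and target genes were lower. Fgf ligands bind receptor kinases, and their targets include inhibitors that limit the signal. Of 22 measured genes 2 were higher (9.09%) and 6 lower (27.3%), with a median of -0.14. Of all measured genes 2.25% were higher and 3.12% lower, and these shares apply beside the counts of each list below. The mesenchymal ligand gene Fgf3 was lower (7.37 and 0.0429 FPKM, -3.0), and Fgf10, another mesenchymal ligand gene, was higher (1.8 and 9.81 FPKM, 1.95). The ligand gene Fgf18 was just past the threshold (7.66 and 16.6 FPKM, 1.03). In upper molars Fgf10 differed by 0.79 and was not counted. The feedback genes Dusp6 (20.5 and 4.56 FPKM) and Spry4 (16.8 and 4.14 FPKM) were lower. So were Etv4 (3.51 and 0.423 FPKM) and Etv5 (14 and 4.02 FPKM), transcription factors that are known targets. The receptor gene Fgfr1, the most abundant of the list, had 30.3 and 35.2 FPKM and was not counted.

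Immediate-early genes code for transcription factors and regulators that are induced without new protein synthesis. Of 21 measured 8 were lower (38.1%) and 1 higher (4.76%), with a median of -0.58. Beside the Egr genes, Klf10 (14.3 and 0.958 FPKM, -2.97), the Egr corepressor gene Nab2 (35.9 and 13.6 FPKM, -1.34) and Arc (2.1 and 0.155 FPKM, -1.42) were lower. The higher gene was Klf4, a zinc finger factor (2.71 and 6.84 FPKM, 1.08). In upper molars 8 genes of the list were lower and 0 higher.

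Among Wnt ligands, receptors and targets (27 measured), 5 were lower (18.5%) and 1 was higher (3.7%), with a median of -0.20. Both counted DNA-binding factors of the pathway were lower, Lef1 at 79.5 and 13.3 FPKM and Tcf7 at 8.34 and 2.05 FPKM. Their relative Tcf7l2 went the other way without being counted (6.18 and 12.6 FPKM, 0.92), and in upper molars it was counted as higher (1.04). Tcf7l1 (0.08) and the target gene Axin2 (-0.04) differed little. The R-spondin gene Rspo3, a secreted enhancer of Wnt signals, was at 11.9 and 3.04 FPKM, and its receptor family had a member on each side, with Lgr6 lower (3.26 and 0.143 FPKM) and Lgr5 higher (4.44 and 12.6 FPKM). The ligand gene Wnt9a was just past the threshold (3.25 and 1.11 FPKM, -1.01). The signal transducer gene Ctnnb1 was not counted (126 and 89.7 FPKM). Listed antagonists of the pathway (10 measured) were split evenly, with 30.0% higher and 30.0% lower. Sfrp2 (105 and 422 FPKM), Sfrp1 (39.6 and 96.1 FPKM) and Dkk2 (8.75 and 24.2 FPKM) were higher, and lower values were seen for Shisa2 (11.5 and 2.65 FPKM), Sfrp4 (4.24 and 0.0365 FPKM) and Wif1 (9.41 and 2.72 FPKM). With the abundant Sfrp2 and Sfrp1 among them, the summed level of the antagonist list was 292 FPKM in the control and 641 FPKM in the mutant. The summed level of the ligands, receptors and targets was 432 and 296 FPKM, with the abundant Lef1 and Ctnnb1 among them. Of these 27 genes 16 had a difference below 0 and 11 above.

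In the Bmp and Gdf list 3 genes were counted (1 higher and 2 lower of 26, median -0.21), which is 3.85% higher and 7.69% lower, beside 2.25% and 3.12% of all measured genes. The ligand gene Bmp3 was lower (7.17 and 0.761 FPKM, -2.21), the target gene Id1 was at the threshold (20.2 and 9.61 FPKM, -1.0) and the secreted antagonist gene Grem1 was higher (1.67 and 5.14 FPKM, 1.20). Id3, the most abundant of the list, had 81.6 and 51.4 FPKM and was not counted. Gdf7, a Bmp family ligand gene that was not on this list, was also higher (1.57 and 8.64 FPKM, 1.91). In upper molars Gdf7 was lower (-1.43). In the activin and Tgf-beta list (20 measured, median 0.02) the activin subunit gene Inhba (118 and 33.5 FPKM, -1.78) and the ligand gene Tgfb1 (7.77 and 2.57 FPKM, -1.29) were lower, and 0 were higher. Of 17 Notch genes 4 were lower (23.5%) and 0 higher (median -0.20). They were the receptor gene Notch1 (7.69 and 2.4 FPKM) and the target repressor genes Heyl (2.36 and 0.219 FPKM), Hey1 (27.9 and 3.62 FPKM) and Hes1 (15.7 and 3.38 FPKM), and all 4 were also counted as lower in upper molars.

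The retinoic acid pathway had 3 lower (23.1%) and 0 higher genes of 13 (median -0.43). Aldh1a2, which makes retinoic acid, was at 10.5 and 0.467 FPKM, a difference of -2.97. Crabp1, an intracellular carrier of retinoic acid, was at 46.8 and 15.6 FPKM and was lower, while its relative Crabp2, the most abundant of the list, was not counted (57.2 and 42.3 FPKM). In upper molars Aldh1a2 differed by -0.91 and Crabp1 by 0.23, neither of which was counted. In the hedgehog list (12 measured, median -0.41) the coreceptor genes Cdon (3.71 and 11.3 FPKM) and Gas1 (10.8 and 22.7 FPKM) were higher, and the forkhead genes Foxf1a (47.5 and 11.1 FPKM) and Foxf2 (2.86 and 0.583 FPKM), known targets in facial mesenchyme, were lower. In lower molars 16.7% of that list were higher and 16.7% lower, and in upper molars 0 genes were counted in either direction.

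Igf signalling had 2 higher (16.7%) and 2 lower (16.7%) genes of 12 (median -0.11). Igf1 was higher (2.32), and its binding proteins, which hold the ligand outside cells, went both ways. Igfbp2 was at 18.5 and 45.3 FPKM, Igfbp3 at 78.2 and 33.6 FPKM and Igfbp7 at 22.4 and 9.43 FPKM. Igf2, the most abundant ligand, had 216 and 242 FPKM and was not counted. Among Pdgf, Vegf and Egf ligands and receptors (13 measured, median -0.18) the angiogenic ligand genes Figf (3.99 and 0.381 FPKM) and Vegfa (7.52 and 3.22 FPKM) and the receptor gene Egfr (9.24 and 3.46 FPKM) were lower. Vegfc (1.76 and 4.82 FPKM), a ligand of lymphatic vessels, and Csf1 (2.42 and 6.97 FPKM), the macrophage growth factor, were higher. The platelet-derived growth factor receptor gene Pdgfrb was left out because its estimate had failed in a lower molar library. Of 9 chemokine and cytokine genes the chemokine gene Cxcl14 was higher (3.28 and 15.5 FPKM, 1.94), 0 were lower and the median was 0.07. Of 19 listed G protein-coupled receptors and peptide ligands (median 0.37) Agtr2 was higher, and Calca, the thrombin receptor gene F2r (56.6 and 17.9 FPKM) and Pthlh (7.14 and 2.13 FPKM), whose product signals to bone-forming cells, were lower. Sstr4, a receptor of this class that was not on the list, was also higher (0.557 and 6.11 FPKM, 2.19).

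**Figure D3:**
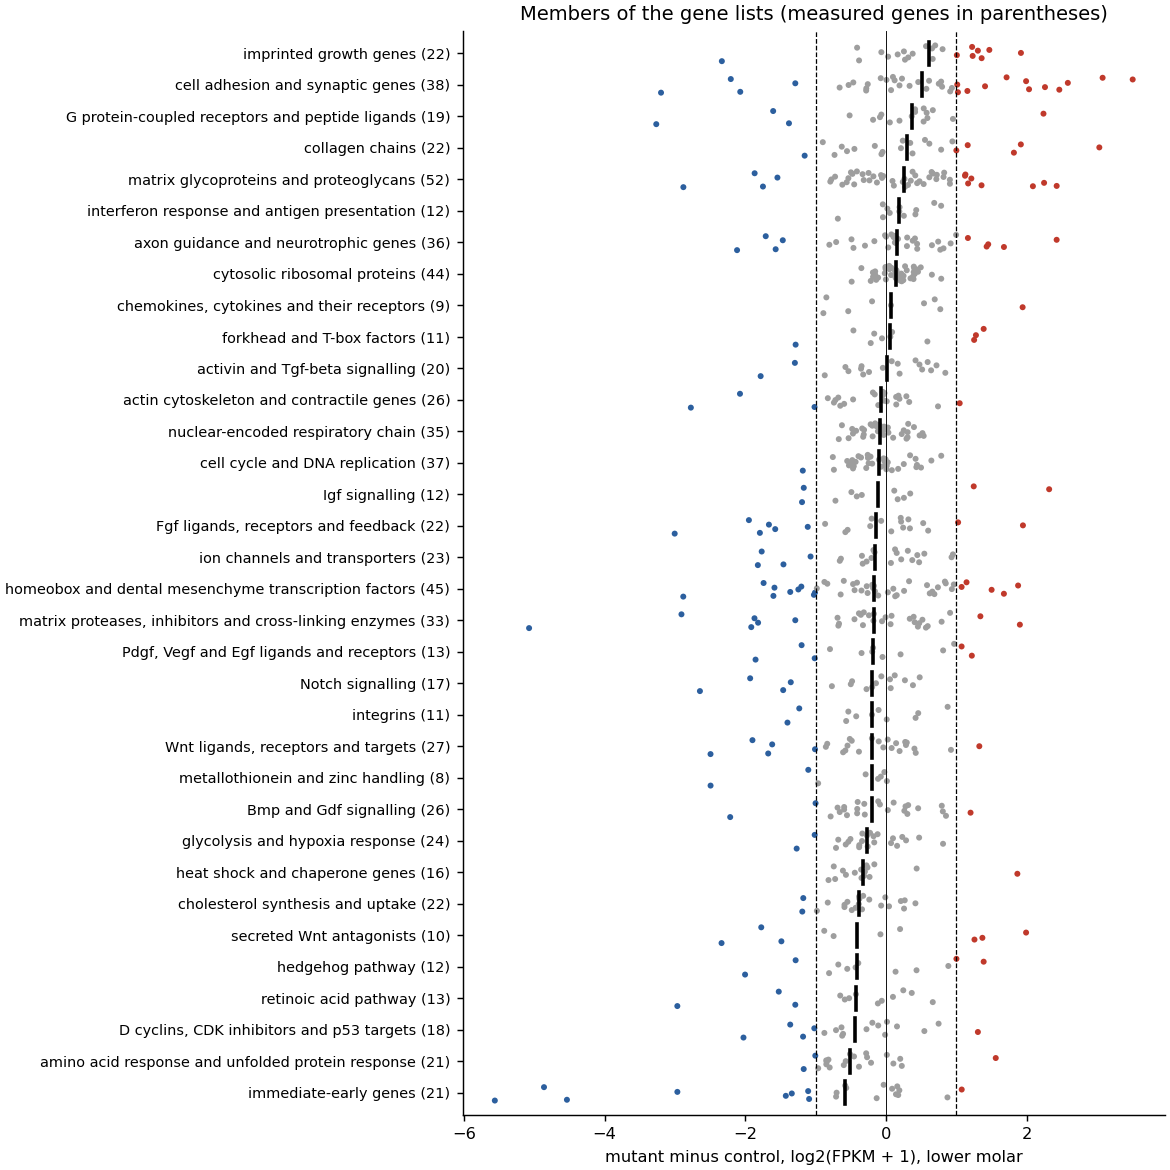
Difference between mutant and control lower molar libraries (horizontal axis, log2(FPKM + 1)) for the measured members of each pathway list, 1 point per gene, with red and blue for genes counted as higher and lower and a black bar at the list median. Immediate-early genes lie at the bottom with a median of -0.58 and imprinted growth genes at the top with 0.61.

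Homeobox and other transcription factors of the dental mesenchyme were the longest factor list (45 measured), with 5 higher, 9 lower and a median of -0.17. The distal-less genes Dlx2 (29.5 and 3.13 FPKM, -2.88) and Dlx3 (10.1 and 2.32 FPKM, -1.74) and Runx2 (44.2 and 13.9 FPKM, -1.60), which bone and tooth mineral tissue require, were lower. Prrx2 was close to the threshold (62.7 and 30.3 FPKM, -1.02). On the high side were Meis2, a Hox cofactor (0.839 and 5.77 FPKM, 1.88), and Pitx1, a factor of mandible and hindlimb development (16.1 and 53.8 FPKM, 1.68). Dlx1as (51 and 7.55 FPKM), which lies antisense to Dlx1, was lower, and reads of this pair cannot be told apart either. Among forkhead and T-box factors (11 measured, median 0.06) Tbx3 (13.4 and 33.2 FPKM), Tbx15 (4.03 and 11.2 FPKM) and Foxp2 (0.138 and 1.98 FPKM) were higher and Foxf2 was lower.

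The listed collagen chains and matrix glycoproteins were counted more often as higher than as lower, although on the values as deposited their medians were -0.13 and -0.20. Of 22 listed collagen chain genes 5 were higher (22.7%) and 1 was lower (4.55%), with a median of 0.29. Beside Col8a1 the fibril-associated collagen gene Col12a1 was higher (16.7 and 66 FPKM, 1.92), as were the cartilage collagen gene Col2a1 (1.68 and 8.47 FPKM), Col25a1 (2.32 and 6.43 FPKM) and Col27a1 (2.99 and 6.99 FPKM), and Col23a1 was lower (7.96 and 3.02 FPKM). Col1a1, the main chain of bone and dentin collagen, had 154 and 236 FPKM and was not counted. The collagen gene Emid2, which was not on the list, was lower (115 and 52.3 FPKM, -1.13). Matrix glycoproteins and proteoglycans (52 measured, median 0.25) had 8 higher (15.4%) and 4 lower (7.69%) genes. Elastin, Eln, was at 9.13 and 42.1 FPKM (2.09), and the proteoglycan genes Spock1 (11.5 and 0.704 FPKM), Prelp (15.7 and 3.97 FPKM) and Sdc4 (25.9 and 6.36 FPKM) were lower. Postn, the most abundant of the list, was not counted (218 and 232 FPKM). The bone matrix gene Spp1, lower as given above (-2.75), was not on this list.

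Proteases, their inhibitors and cross-linking enzymes (33 measured, median -0.17) had 6 lower (18.2%) and 2 higher (6.06%) genes. The plasminogen activator gene Plat (5.6 and 0.806 FPKM) and Serpine2 (38.7 and 9.53 FPKM), which encodes an inhibitor of such activators, were both lower, and so was the serine protease gene Htra3 (4.64 and 0.6 FPKM). Lox, which cross-links collagen and elastin, was higher (3.21 and 14.8 FPKM, 1.90). The collagen chaperone gene Serpinh1 was at 103 and 102 FPKM. Among integrins (11 measured, median -0.20) the chains Itga6 (7.5 and 2.22 FPKM) and Itgav (12 and 4.52 FPKM) were lower (18.2%) and 0 were higher.

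Cell adhesion and synaptic genes were the list with the most higher members. Of 38 measured 12 were higher (31.6%) and 4 lower (10.5%), with a median of 0.52. Earlier results of these libraries were known when this list was chosen, so its count is no independent evidence of its direction. The summed level of the list was 318 FPKM in the control and 537 FPKM in the mutant, while Cdh11, its most abundant member, was not counted (71.4 and 90.4 FPKM). Axon guidance and neurotrophic genes (36 measured, median 0.16) had 5 higher (13.9%) and 4 lower (11.1%) members. The neurotrophin receptor gene Ntrk2 (2.21 and 9.26 FPKM) and the ephrin receptor gene Epha7 (15.7 and 44 FPKM) were higher, and Sema7a (7.48 and 0.955 FPKM), the netrin receptor gene Unc5b (11.4 and 2.79 FPKM), the semaphorin receptor gene Nrp2 (18.8 and 5.67 FPKM) and the ephrin gene Efnb2 (23.1 and 7.71 FPKM) were lower. Of 23 ion channels and transporters (median -0.16) 0 were higher and 4 lower, among them the amino acid carrier gene Slc7a5 (10.7 and 2.3 FPKM) and the lactate carrier gene Slc16a1 (6.08 and 1.58 FPKM).

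Of 37 measured genes of DNA replication and mitosis 1 was lower and 0 higher (median -0.10), the ribonucleotide reductase gene Rrm2 (19.8 and 8.15 FPKM). The share of lower genes was 2.7%, near the 3.12% of all measured genes, of which 2.25% were higher. Without regard to the threshold, 24 of the 37 had a difference below 0 and 13 above. In the list of cycle regulators 22.2% were lower and 5.56% higher. Among D cyclins, CDK inhibitors and p53 targets (18 measured, median -0.44) the cyclin gene Ccnd2 (89.5 and 34.2 FPKM), the kinase gene Cdk6 (7.01 and 2.54 FPKM), the CDK inhibitor gene Cdkn1a (6.73 and 0.898 FPKM) and Gadd45b (3.11 and 1.03 FPKM) were lower. Cdkn1c, an imprinted CDK inhibitor gene, was higher (50.7 and 127 FPKM, 1.31). Inhibitors of the cycle were thus found on both sides.

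Imprinted growth genes had the highest median of the 34 pathway lists, 0.61 over 22 measured, with 7 higher (31.8%) and 1 lower (4.55%). H19 (139 and 326 FPKM, 1.23) and Meg3 (7.73 and 32 FPKM, 1.92), both long RNAs without a protein product, the zinc finger gene Plagl1 (7.44 and 20.7 FPKM), the amino acid carrier gene Slc38a4 (2.08 and 7.54 FPKM) and Rtl1 (0.335 and 2.14 FPKM) were higher. Dio3, which inactivates thyroid hormone and lies in the same imprinted cluster as Meg3 and Rtl1, was lower (7.52 and 0.69 FPKM, -2.33). In upper molars the same list had 1 higher and 1 lower gene and a median of 0.26, with H19 at 0.37, Meg3 at 0.50 and Cdkn1c at 0.23. Whether these differences differ between the jaws was not tested.

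In the metabolic and stress lists 0 to 2 genes were counted as lower, which is 8.33% of the glycolysis, 9.09% of the cholesterol and 9.52% of the amino acid response list, beside 3.12% of all measured genes. Glycolysis and hypoxia genes had 2 lower of 24 (median -0.26), Vegfa and the lactate dehydrogenase gene Ldha (182 and 74.8 FPKM), while Gapdh was at 445 and 523 FPKM. Cholesterol synthesis genes had 2 lower of 22 (median -0.38), among them the sterol demethylase gene Cyp51 (19 and 7.77 FPKM). In the amino acid and unfolded protein response list (21 measured, median -0.51) Ddit4, an inhibitor of the growth kinase mTOR, was higher (4.13 and 14.2 FPKM), and the asparagine synthetase gene Asns (5.66 and 2.32 FPKM) and Sdf2l1 (8.18 and 3.08 FPKM) were lower. Of 16 chaperone genes (median -0.33) Hspb1 was higher (0.476 and 4.39 FPKM) and 0 were lower. Interferon response genes (12 measured, median 0.19), cytosolic ribosomal proteins (44, median 0.15) and the respiratory chain (35, median -0.08) had 0 counted members. For example, Rps29 was at 1218 and 1609.8 FPKM and Cox7c at 344 and 309 FPKM.

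Among actin and contractile genes (26 measured, median -0.08) Tagln2 (91.5 and 21 FPKM) and Cnn3 (63.4 and 30.9 FPKM), both actin binding, were lower beside Mical2, and Cald1, a regulator of actomyosin, was higher (53.7 and 112 FPKM). Actb itself was not counted (923 and 577 FPKM). Both measured metallothionein genes, whose products bind zinc, were lower, Mt2 at 23 and 3.26 FPKM and Mt1 at 23.7 and 10.5 FPKM, and the list of 8 had a median of -0.20.

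By abundance, the counted genes at the top were of another kind. The most abundant lower genes were Ptma (669 and 331 FPKM), Hist1h2bm (317 and 153 FPKM) and the actin-binding profilin gene Pfn1 (215 and 107 FPKM), of which Ptma and Pfn1 were just past the threshold, both at -1.01. Inhba (118 and 33.5 FPKM), Ccnd2 and the collagen gene Emid2 (115 and 52.3 FPKM) were also in the 10 most abundant lower genes, as was the tetraspanin gene Cd81 (107 and 50.5 FPKM). On the high side Sfrp2 and H19 led, followed by Tpt1p (61.8 and 189 FPKM), Cdkn1c and Cald1, and Anapc13 (32.6 and 66.2 FPKM) was the least abundant of the 10. The heparan sulphate synthesis gene Ext2 (30.7 and 79 FPKM) and Mab21l2 (49.9 and 105 FPKM) were further members. Tpt1p and the histone genes have near-identical copies, between which reads can be split.

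Summed marker levels of the other cell types, red blood cells excepted, were below those of dental mesenchyme (701 and 654 FPKM). Single markers of these types could still be abundant. Sostdc1, Krt5, Krt14, Cdh5 and Alpl were among the 2094 most abundant measured genes, which start at a mean of 12.2 FPKM. Several markers of other cell types were higher in the mutant. Fewer cells of a type and less RNA per cell cannot be told apart in such bulk samples. Of 16 epithelial markers 10 were measured, with 3 higher, 0 lower and a median of 0.69, and their summed level was 89 and 119.8 FPKM, against 75.7 and 130.4 FPKM in upper molars. The basal keratin genes Krt5 (14.4 and 33 FPKM), Krt15 and Krt14 (12.6 and 17.1 FPKM) were above their control values, and Sostdc1 (41.7 and 24.5 FPKM), the most abundant of the list, was below it and was not counted. In upper molars Sostdc1 went the other way (41 and 70.4 FPKM), and the sums of both jaws include this gene. Over all 16 epithelial markers, measured or not, 14 had a higher value in the mutant, among them Trp63 (2.97 and 5.73 FPKM), Esrp1 (0.782 and 1.73 FPKM), Epcam (0.386 and 1.49 FPKM), Cldn1 (0.458 and 1.21 FPKM) and Cldn4 (0 and 0.463 FPKM). Of these markers 4 were under 0.5 FPKM in both libraries, among them Cdh1 (0.0442 and 0.168 FPKM) and Shh (0 and 0.0216 FPKM). Cartilage markers summed to 6.01 and 26.4 FPKM. Of these 4 of 12 were measured (median 1.38), Col2a1 and Hapln1 were higher and Sox9 (1.5 and 3.77 FPKM) was not counted. Acan (0.0195 and 0.0561 FPKM) and Matn1 (0 and 0.0484 FPKM), which define mature cartilage, were at or near 0. The part of epithelial or cartilage cells in the differences of Perp, Krt15, Col2a1 and Hapln1 was not tested.

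Macrophage markers summed to 53 and 77 FPKM, with 2 higher (14.3%) of 14 measured, C1qc (5.58 and 13.7 FPKM) and Mrc1 (0.644 and 2.94 FPKM). Osteoblast markers (7 measured, median 0.24, summed 32.9 and 42.4 FPKM) went both ways. The bone matrix gene Ibsp (2.04 and 10.8 FPKM) and Ifitm5 (1.23 and 6.4 FPKM) were higher beside the lower Spp1, Alpl (14.1 and 16.8 FPKM) and Sp7 (4.99 and 3.01 FPKM) were not counted, and Bglap, the osteocalcin gene, was at 0.111 and 0 FPKM. Endothelial markers (15 measured) had 0 counted members and a median of 0.02, with Cdh5 at 15.4 and 20.5 FPKM. Among pericyte and smooth muscle markers (5 measured, median 0.06) Rgs5 was lower (9.18 and 2.44 FPKM), while Notch3 was at 7.2 and 7.53 FPKM and Acta2 at 3.55 and 4.2 FPKM. Erythroid markers (8 measured, median -0.18) summed to 1007 and 954 FPKM. Of these Hbb-b1 was lower (171 and 63 FPKM) and its near-identical copy Hbb-b2 higher (43.8 and 98.3 FPKM). Glia and neuron markers had 2 of 15 measured, the neurofilament gene Nefl higher (0.705 and 4.14 FPKM) and Gap43 not counted (3.01 and 4.6 FPKM), while the glial factor gene Sox10 was at 0.358 and 0.153 FPKM. Skeletal muscle markers had 2 of 14 measured and 0 counted, and Myod1 was at 0 and 0.039 FPKM.

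**Figure D4:**
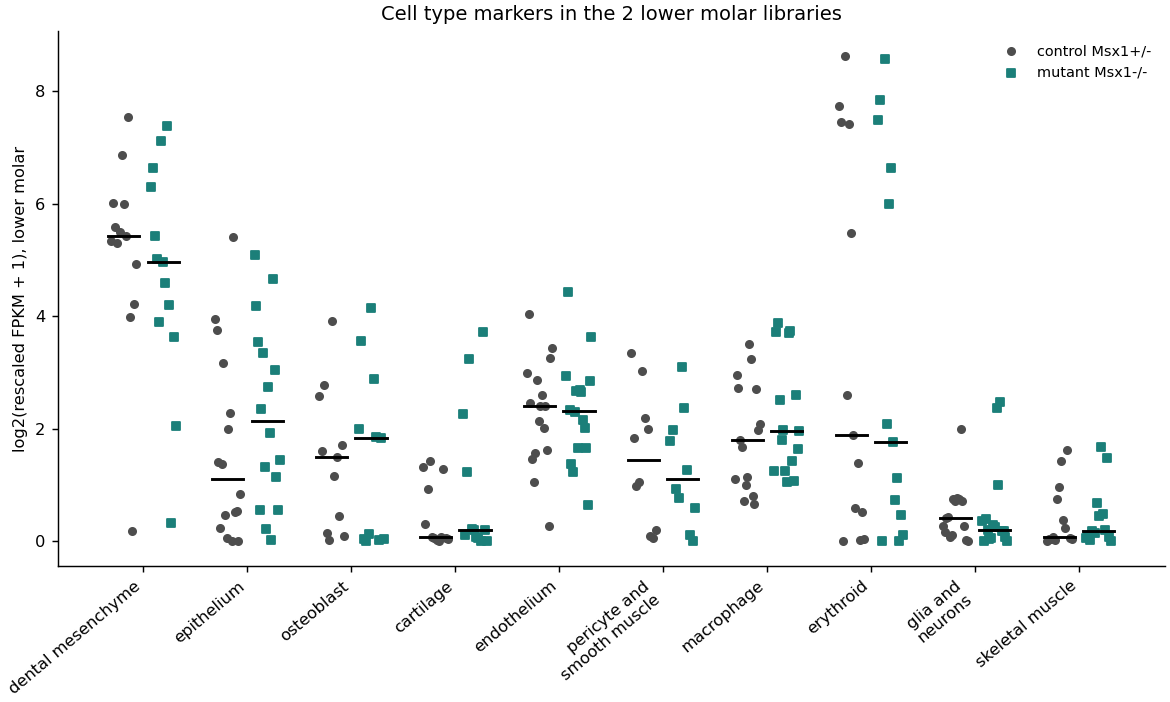
Level of every marker found in the tables, as log2(rescaled FPKM + 1), in the control (grey circles) and the mutant (green squares) lower molar library, with a black bar at the median of each list. Dental mesenchyme markers have the highest medians in both libraries, and erythroid markers hold the most abundant single genes.

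The upper molar libraries, rescaled in the same way, share no library with the lower molar ones, although the labels do not say whether the jaws came from the same embryos. There 1.20% of 10599 measured genes were higher and 3.05% lower in the mutant. Of the 214 genes higher in lower molars that were also measured in upper molars, 69 were counted as higher there (32.2%) and 194 had a difference above 0 (90.7%, against 50.1% of all 10214 genes measured in both jaws). Of 321 lower genes 118 were counted as lower in upper molars (36.8%) and 284 had a difference below 0 (88.5%, against 49.9%). The median difference of these genes was smaller in upper molars, at 0.66 in place of 1.27 for higher genes and -0.75 in place of -1.28 for lower genes. Since the genes were chosen for a large difference in lower molars, a smaller one elsewhere follows in part from that choice.

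Several of the genes with the largest lower molar differences were counted in both jaws. Lrrtm1 was at 2.67 and 39.3 FPKM in upper molars, Col8a1 at 3.48 and 49.6 FPKM, Egr3 at 111 and 0.299 FPKM and Enpp1 at 54 and 1.31 FPKM. The upper molar differences of these 4 genes were 3.46, 3.50, -6.44 and -4.57. Others were counted in lower molars and differed by under 0.25 in upper molars, which held for 37 of 214 higher genes (17.3%) and for 67 of 321 lower ones (20.9%), against 57% of all genes measured in both jaws. Igf1 had 9.91 and 11 FPKM in upper molars (0.14, against 2.32 in lower molars). The membrane scaffold gene Cav1 (4.59 and 19.4 FPKM) differed by 0.14 there, Hspb1 by 0.13, and Tpt1p by -0.03. On the low side Gm9846, Crabp1, the arginine methyltransferase gene Prmt1 (68.9 and 23.6 FPKM) and the pro-apoptotic gene Bak1 (13 and 3.88 FPKM) were in this group, as were the trafficking genes Arl1 (10.1 and 2.03 FPKM) and Ap1s1 (12.3 and 3.73 FPKM). Calca differed by 0.73 in upper molars against -3.27 in lower molars. With 1 library per group, whether any such difference differs between jaws was not tested.

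**Figure D5:**
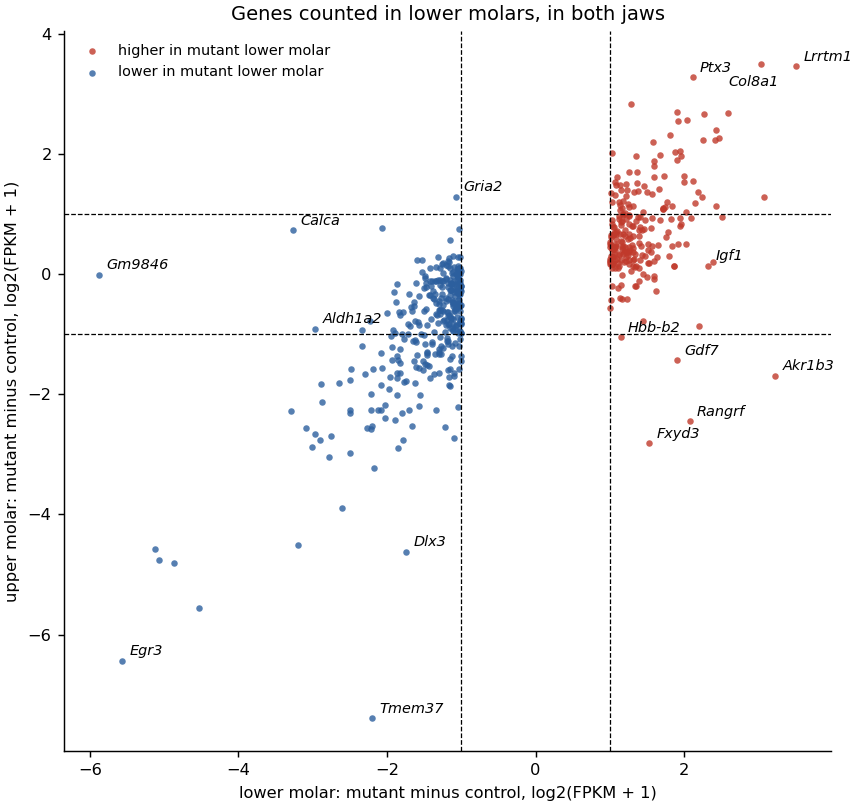
Mutant minus control difference in upper molars (vertical axis) against that in lower molars (horizontal axis), both as log2(FPKM + 1), for the genes counted in lower molars. Most points fall in the lower left and upper right of the plot, Lrrtm1 and Col8a1 lie at the top right, Gm9846 and Igf1 lie near 0 in upper molars, and 6 genes pass the threshold in opposite directions.

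Around Msx1, and leaving out Msx1 and Msx1as, 49 measured genes start within 5 Mb on chromosome 5, of which 1 was higher and 4 lower (10.2%, against 5.38% of all measured genes), with a median of -0.05. Stk32b (chromosome 5, 37838064 to 38108392), a kinase gene, was at 7.68 and 0.867 FPKM (-2.22), and in upper molars it differed by -2.0. Htra3 was lower in both jaws, and the vesicle fusion gene Stx18 (12.1 and 5.32 FPKM) and Nsg1 (11.6 and 5.16 FPKM) were lower in lower molars and not counted in upper molars. Sorcs2, which encodes a sorting receptor, was higher in both (0.439 and 3.34 FPKM, 1.59).

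Values for single transcripts were less even than those for genes. Of 171 genes with at least 2 RefSeq transcripts at a mean of 5 FPKM, 68 had transcripts whose differences lay 1 or more apart, and in 14 of them 1 transcript was higher and another lower. Akt1, a kinase gene of growth signalling, was at 29.6 and 27.6 FPKM as a gene, but NM_009652 was at 27.9 and 0.244 FPKM and NM_001165894 at 1.69 and 27.4 FPKM. In Tmem39a the pair NM_026407 (18.3 and 2.39e-05 FPKM) and NM_001205286 (0.00187 and 17.9 FPKM) exchanged places in the same way. Akt1 showed no such exchange in upper molars, where NM_009652 was at 37.9 and 33.2 FPKM. In Postn the 3 transcripts differed by 0.47, 0.05 and -4.97, the last being NM_001198766 at 30.3 and 0.000260 FPKM. Actr3 (gene level 56.8 and 23.5 FPKM), Sirt2 and Tpm1 had similar splits. The transcripts of such genes share most of their sequence, and the tables give no error for how Cufflinks divided reads among them.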

How the data were processed

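RNA sequencing of 4 libraries was used, 1 for each genotype and jaw, at embryonic day 14. The submitters' processing notes name mm9, Bowtie 0.12.7 and TopHat 1.4.1. Per the file headers, the authors' tables have 28107 RefSeq transcript entries with FPKM, coverage signal and a status, as Cufflinks writes them. No version of Cufflinks was found in the labels. Coverage as deposited was FPKM times a constant within a library. Whole reads could not be recovered, so no count model or counting interval is given.

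FPKM was summed per gene name (22072 names). Names of small RNAs (722) and names with a failed estimate in a compared library (42 in lower molars) were left out. The 2 libraries of a jaw were rescaled by the median of ratios over genes at 1 FPKM or more in both. A mean of at least 1 FPKM was required, and a pseudocount of 1 was added before taking log2, so the change of genes with low values is understated. A difference of 1 counted. Start positions had 1 added. Promoters are from RefSeq (GRCm38.p6), transcript GC from GENCODE sequences of that build (95.5% of measured genes).

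The 44 gene lists (34 of pathways and 10 of cell types, with 1148 of 1156 distinct symbols found) and the comparison were chosen with earlier results of these data known. Genes named were Msx1, the 20 largest differences and 10 most abundant counted genes each way, up to 6 counted members and the most abundant member of each list (3 for cell types), the 8 largest each way under 0.25 in upper molars, genes counted in opposite directions in the jaws, counted genes within 5 Mb of Msx1, and 6 genes with transcripts that differed. Klf4, Fgf18, weak cell type markers and the histone genes other than Hist1h2ak and Hist1h2bm were chosen after their values were seen. So were Tcf7l2, Tcf7l1, Axin2, Pcna, Mcm2 and Mcm4. A few genes that this rule names are not reported here. The comparison was tested on simulated data. Python 3.11.15, pandas 2.3.3 and limma 3.58.1 were used. The alternatives were other pseudocounts, filters and scalings, 1 transcript per gene, small RNAs kept, and limma over the 4 libraries. Rescaling over all genes above 0 was added after seeing the data.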

Additional observations from a re-analysis of the deposited data

Results flagged for a closer look

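The 6 genes below are those that passed the threshold in opposite directions in the jaws, and the difference between the jaws was not tested because each group has 1 library. Akr1b3 was higher in lower molars (3.23) and lower in upper molars (-1.69), which lie 4.92 apart on the log2(FPKM + 1) scale. Its level was 0.000221 and 8.38 FPKM in control and mutant lower molars and 11.8 and 2.97 FPKM in upper molars. Rangrf (lower 2.07, upper -2.45, 4.52 apart) had 0.000172 and 3.21 FPKM in lower and 4.47 and 0.00024 FPKM in upper molars. For both genes 1 control library was near 0 and the other was not. Fxyd3 (lower 1.53, upper -2.81, 4.34 apart) had 2.01 and 7.66 FPKM and 19.8 and 1.96 FPKM. The Bmp family ligand gene Gdf7 (lower 1.91, upper -1.43, 3.34 apart) had 1.57 and 8.64 FPKM and 10.9 and 3.42 FPKM. Hbb-b2 (lower 1.15, upper -1.05, 2.20 apart) is a globin gene whose reads can be shared with Hbb-b1. The glutamate receptor gene Gria2 was the one gene lower in lower molars (2.06 and 0.456 FPKM, -1.07) and higher in upper molars (3.41 and 9.75 FPKM, 1.29), with a gap of -2.36.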

How the results depend on the processing

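No paired analysis was possible because, within lower molars, each genotype has 1 library, and none could be left out. Against 236 higher and 327 lower genes (69 and 118 in both jaws), a pseudocount of 0.1 gave 482 and 524 (140 higher in both jaws), and a pseudocount of 5 gave 69 and 108 (25 and 51). Requiring a mean FPKM of 5, which tests fewer genes, the counts were 129 and 197 (38 and 62). On values as deposited they were 97 and 993 (41 higher in both jaws). That all 327 lower genes were among the 993 follows from the direction of the rescaling and is no check of them. With limma over the 4 libraries with jaw as a term, which sets mutant against control within both jaws, 154 genes were higher and 199 lower over both jaws at an adjusted p of 0.05, on 1 residual degree of freedom. Other scalings, no filter, small RNAs kept and 1 transcript per gene kept the counts of lower molars within 1.5 times. Of 179 named counted genes, 93 were counted under every setting that measured them. A pseudocount of 5 ended the call of 74, values as deposited of 25, a common upper quartile of 10, a common total of 7, and the ratios over all genes above 0 of 5. The upper quartile ended the calls of Id1, Prrx2, Vegfa, Wnt9a, Asns, Cnn3, Gadd45b, Nsg1, Pfn1 and Ptma, and values as deposited those of H19, Cdkn1c, Sfrp1, Dkk2, Epha7, Igfbp2, Krt5, C1qc, Lgr5 and Csf1 among others. With the most abundant transcript in place of the sum, Tmem39a (-4.27) and Tpm1 (-2.90) changed sign, since their transcripts went opposite ways. On values as deposited, where the median of all genes was -0.39, 14 of 44 list medians turned negative, among them those of collagens (-0.13), matrix glycoproteins (-0.20), axon guidance (-0.14) and G protein-coupled receptors (-0.09). With a common total or upper quartile 0 did. The number of reads behind a value is not known, so differences of genes at a few FPKM are the least certain.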

Other observations

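Replication-dependent histone genes, a group chosen after their values were seen, made up 19 of the 32 lower genes of chromosome 13. Their messages lack a poly(A) tail and are made in S phase. Of 60 measured genes with names of the clusters Hist1 to Hist4, 19 were lower and 0 higher in lower molars (median -0.70), against 0 lower and 0 higher in upper molars (median -0.14). All 19 lie on chromosome 13, which holds 48 of the 60. Of all measured genes 3.12% were lower and 2.25% higher in lower molars, and 3.05% and 1.20% in upper molars. Hist1h2ak was at 147 and 44.7 FPKM in control and mutant lower molars, Hist1h4j at 39.7 and 14.3 FPKM, Hist1h1a at 19.9 and 7.78 FPKM and Hist1h3c at 20.7 and 8.39 FPKM. The 37 measured genes of DNA replication and mitosis had 1 lower member (2.7%) in the same pair of libraries, near the share of all measured genes. Without regard to the threshold, 24 of the 37 had a difference below 0 and 13 above, with a median of -0.10. Replication genes such as Pcna (-0.76), Mcm2 (-0.53) and Mcm4 (-0.49) were below 0 without being counted. Histone genes have near-identical copies, so single values are uncertain, and the difference between the jaws was not tested. Chromosome 13 had 9.91% of its 424 measured genes counted, the largest share of the chromosomes, with 10 higher and 32 lower.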
